A study of Arabidopsis thaliana with 4 samples.

Results

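The plates TA22 to TA28 form a short run of tiling array features with high scores in a chromatin immunoprecipitation of histone H3 from Arabidopsis thaliana seedlings. The members are the features whose codes begin with TA22 to TA28 and that carry a value on all 4 arrays, which gave 623 of 21732 measured features (2.87%) on 7 of 231 plates. The run was picked from the scores themselves, so its height is a description and was not tested. It was set beside the flanking plates, TA15 to TA21 with 658 features and TA29 to TA34 with 554 features.

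Nucleosomes, the spools on which eukaryotic DNA is wound, each contain histone H3 as a core subunit, and an antibody against H3 in any modification state is commonly used to follow nucleosome density or to normalize maps of modified histones. In plants, heterochromatin is known for tightly packed nucleosomes, while promoters of active genes are known for nucleosome-poor DNA. A tiling array reads such an experiment as a series of DNA segments, each giving a ratio between precipitated and input DNA.

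All material came from untreated Col-0 seedlings, labelled as 10 day old and grown in liquid medium. Whole seedlings were used, so every score averages over their cell types. There was 1 group, with replicates 1 and 2 (I and II in the labels). Each replicate's H3 precipitate was compared with its own input on 2 arrays with exchanged dyes, and the labels do not say whether the replicates were separate cultures.

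The deposited value is a ratio score, presumably logarithmic. Neither its base nor its numerator is stated in the labels, so "above" and "below" refer to the score against the array median and give H3 itself no direction. Both arrays of a dye swap held the same value at all 21732 features, and each replicate therefore gave 1 value per feature (n = 2). Replicate 2 spread more widely over the array, with an SD over all features of 0.39 against 0.25 in replicate 1. All scores below are given after subtraction of the median of that replicate over all features. A code such as TA22E01 is read as plate TA22, row E, well 1. The gene table of assembly TAIR10.1 holds 0 of these codes, so no gene or position is attached to a feature.

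The run lay above its flanks in both replicates. Its median score was 0.14 in replicate 1 and 0.31 in replicate 2, with a mean of 0.23 ± 0.12 (SD, n = 2). The flanking plates had medians of 0.02 and 0.01 in replicates 1 and 2. The run thus exceeded the flanks by 0.12 units in replicate 1 and by 0.29 in replicate 2, a mean of 0.21 ± 0.12 (SD, n = 2). The excess was 0.19 ± 0.12 (SD, n = 2) over TA15 to TA21 and 0.22 ± 0.12 (SD, n = 2) over TA29 to TA34, so the run stood apart from either side by a like amount. Replicate 2 had the wider spread over all features, and the part of this spread in the gap between the replicates was not tested. With both replicates brought to the same median absolute deviation, the run medians were 0.21 in replicate 1 and 0.23 in replicate 2.

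**Figure D1:**
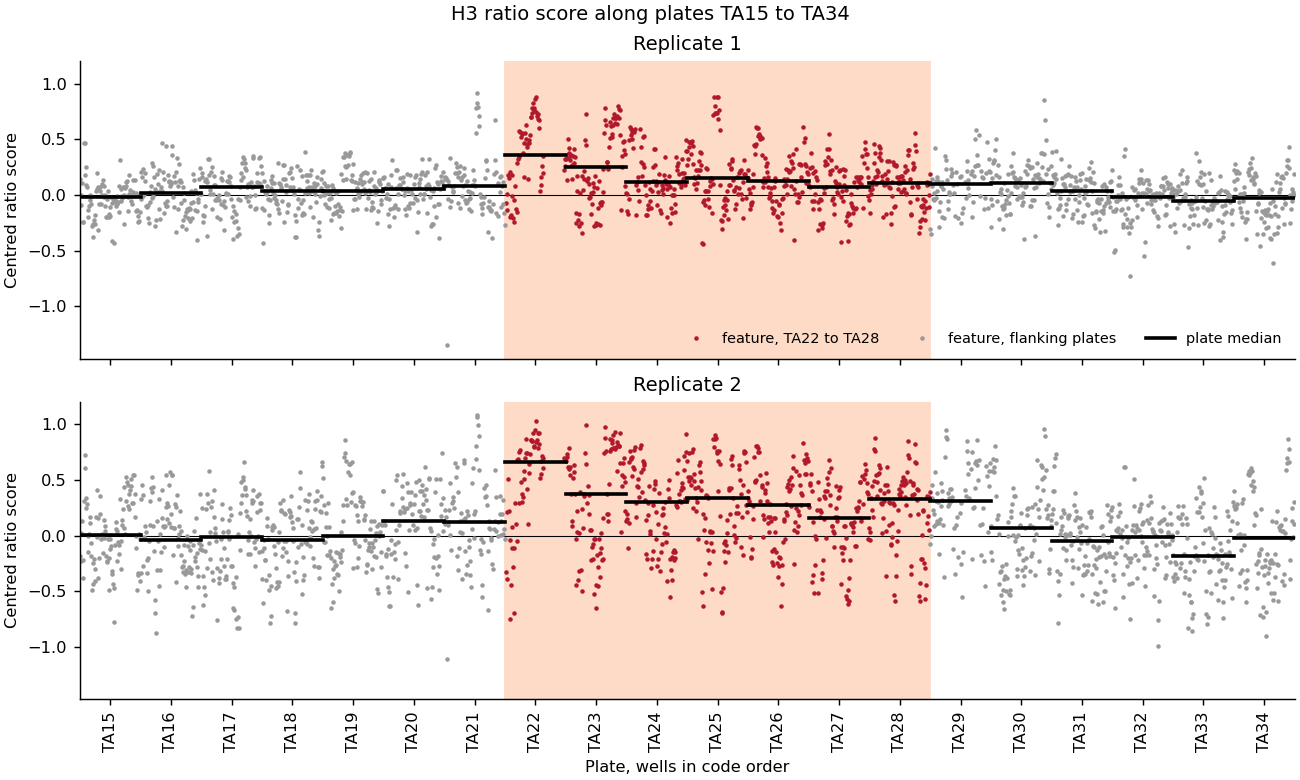
Centred ratio score of each feature (y axis, score units) against its place in code order on plates TA15 to TA34 (x axis), with replicate 1 above and replicate 2 below. Red points are features of TA22 to TA28, grey points are the flanking plates and black bars are plate medians. The run holds clusters of points near 0.5 to 1 separated by wells near or below 0.

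The plates of the run differed in height, with TA22 the highest in both replicates and TA27 the lowest. TA22 had medians of 0.36 and 0.66 in replicates 1 and 2, which ranked 10 and 5 among the 231 plates. TA23 followed with 0.25 and 0.38, ranks 23 and 26. These 2 plates, at the start of the run, had its highest medians in both replicates.

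The middle plates were lower and close to each other. TA24 had medians of 0.11 and 0.30 in replicates 1 and 2, TA25 had 0.15 and 0.34, and TA26 had 0.13 and 0.27. TA27 reached 0.07 and 0.16. TA28, the last plate, was at 0.11 in replicate 1 and 0.33 in replicate 2, which in replicate 2 was close to TA25. From TA24 onward TA25 was highest and TA27 lowest in both replicates, while TA26 and TA28 changed places.

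The plates had been picked because their medians reached 0.1 units in each replicate, with 1 lower plate tolerated inside a run. Of the 7 plates, 6 met this level, against 37 of all 231 plates (16.0%), and TA27 with 0.07 in replicate 1 was the tolerated one. The values just inside and just outside show that the far end is not sharp. TA28, just inside, had 0.105 in replicate 1, and TA29, just outside, had 0.0991 in replicate 1 and 0.31 in replicate 2. On the near side TA21 had 0.08 and 0.12 and TA20 had 0.06 and 0.13 in replicates 1 and 2. TA30 had 0.11 and 0.07. The plates farther out, TA15 to TA19 and TA31 to TA34, lay between -0.05 and 0.07 in replicate 1 and between -0.18 and 0.002 in replicate 2.

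**Figure D2:**
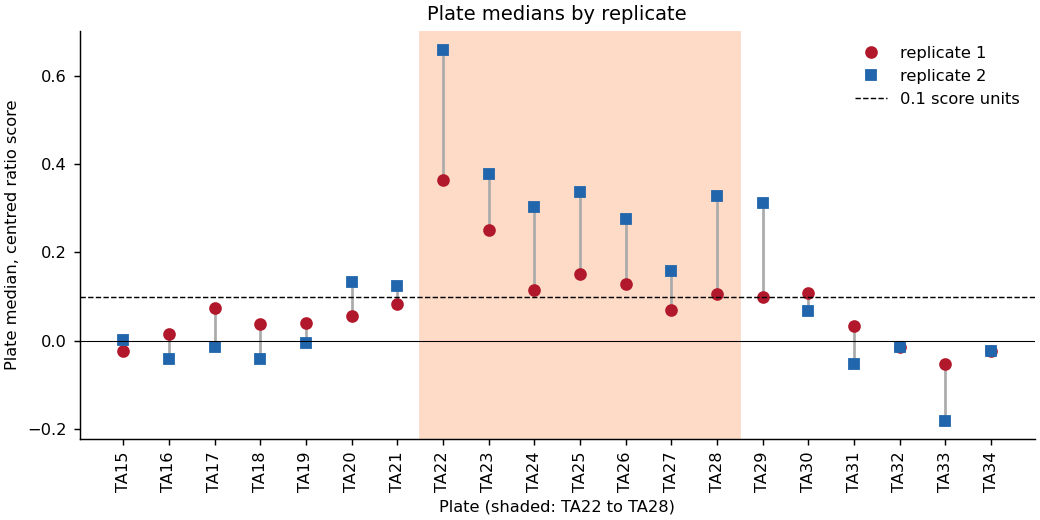
Plate medians of the centred ratio score (y axis, score units) for plates TA15 to TA34 (x axis), with circles for replicate 1, squares for replicate 2 and a grey line joining them. The shaded plates are TA22 to TA28 and the dashed line is 0.1. TA22 stands highest at 0.36 and 0.66, and TA29 lies just under the line in replicate 1.

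Most features of the run lay above the array median, but a minority did not. Both replicates were above it at 424 features (68.1%), against 40.5% of all features on the array. Both were below it at 116 features (18.6%), and the replicates took opposite sides at 83 (13.3%). In the flanks both replicates were above at 42.9% of features, both below at 35.3% and on opposite sides at 21.8%. Because the run was selected on these scores, these shares and the calls that follow describe its make-up only.

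Each feature's mean was compared with the array median by limma's moderated test across all 21732 features, with Benjamini-Hochberg adjustment at 5%. It called 283 features of the run above (45.4%), where 17.0% of all features were called above. It called 47 below (7.54%), where 19.4% of all features were called below, and it left 293 (47.0%) uncalled. In the flanks 14.9% were called above and 14.7% below. All features share 1 standard error of 0.11 units in this fit, so a feature's own replicate spread did not enter its call. With a variance that follows the level and resists outliers, 184 features of the run were above and 0 below, against 9.95% and 0.175% of the whole array.

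The run lay above its flanks at each percentile examined, by the least at the foot of the distribution. In replicate 1 the 5th, 25th, 75th and 95th percentiles over the features were -0.23, -0.01, 0.33 and 0.69 in the run, and -0.28, -0.10, 0.14 and 0.32 in the flanks. In replicate 2 they were -0.44, 0.01, 0.56 and 0.82 in the run, and -0.56, -0.24, 0.25 and 0.60 in the flanks. At the 5th percentile the run was thus 0.05 and 0.12 units above the flanks in replicates 1 and 2, at the 25th percentile 0.09 and 0.25 units, at the 75th percentile 0.19 and 0.31 units and at the 95th percentile 0.37 and 0.23 units. In replicate 1 the difference was wider at each higher percentile, while in replicate 2 it was 0.23 to 0.31 units from the 25th percentile upward, the median included. Scores of at least 0.5 in both replicates occurred at 76 features of the run (12.2%), at 14 of the flanks (1.16%) and at 4.73% of all features. Scores of -0.5 or lower in both replicates occurred at 0 features of the run, at 3 of the flanks (0.248%) and at 0.916% of all features.

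**Figure D3:**
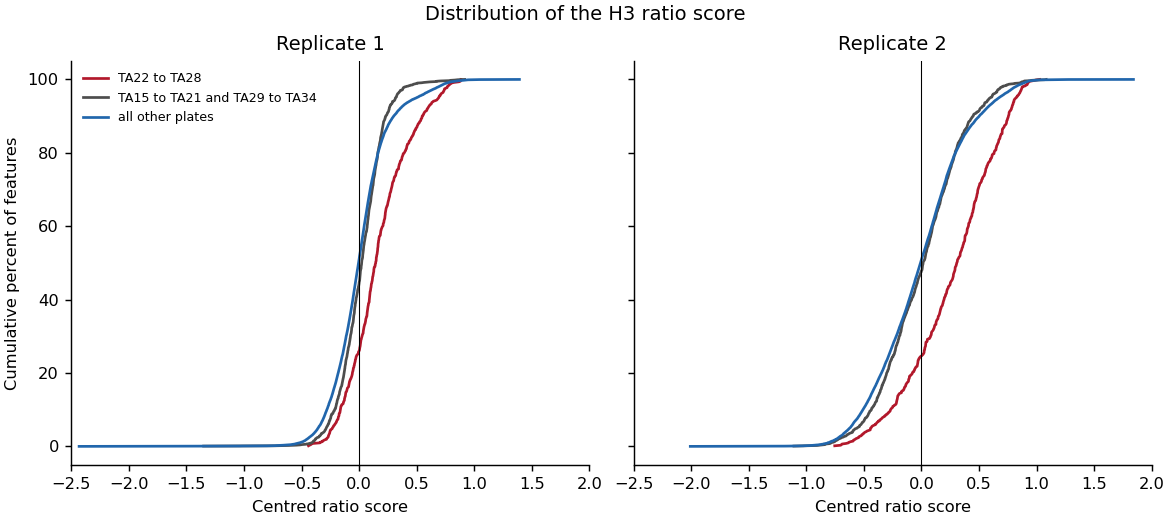
Cumulative percent of features (y axis) against the centred ratio score (x axis, score units) in replicate 1 (left) and replicate 2 (right) for TA22 to TA28, for the 13 flanking plates and for all other plates. The curve of the run lies to the right of the others, and farther from the flanks near its upper end than at its foot in replicate 1.

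The highest and the lowest members sat in different plates. TA22E01 had 0.88 in replicate 1 and 1.03 in replicate 2, a mean of 0.95 ± 0.10 (SD, n = 2). Its neighbour in the well before, TA22D12, had 0.87 and 0.95, a mean of 0.91 ± 0.06 (SD, n = 2). They ranked 26 and 60 from the top over the array, so the run held high scores but not its most extreme ones. The lowest member, TA25C01, had -0.44 and -0.63, a mean of -0.54 ± 0.14 (SD, n = 2). TA27F02 had -0.41 and -0.62, a mean of -0.52 ± 0.14 (SD, n = 2). Both low members were called below and lay within plates whose medians were above the array median.

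High features of the run came in blocks. Rows of 12 wells were summarised by their medians where at least 6 wells had a value, which gave 53 rows in the run. The row median was at least 0.5 in both replicates in 8 of the 53 rows, in 1 of 104 rows of the flanks (TA21 row E) and in 4.13% of the rows of the whole array. These 8 rows were TA22 rows C, D and E, TA23 rows F and G, TA24 row A, TA25 row D and TA26 row B. TA22 row D was the highest by the mean of the replicates, at 0.72 in replicate 1 and 0.83 in replicate 2, a mean of 0.77 ± 0.07 (SD, n = 2), with 11 of its 12 features called above. TA25 row D reached 0.73 and 0.75, with 7 of its 12 features called above and 1 below. The medians of its neighbouring rows were near the array median. TA25 row C was at 0.0007 and 0.05 and TA25 row E at -0.07 and -0.06 in replicates 1 and 2. Row E was mixed, with 4 features called above, TA25E01 to TA25E04 next to row D, and 4 called below.

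Other rows of the run had medians below the array median in both replicates. There were 6 such rows of 53, namely TA23 rows D and E, TA25 row E, TA26 rows D and E and TA27 row F, against 29 of 104 in the flanks and 41.8% of the rows of the array. The lowest of the 6 by the mean of the replicates, TA27 row F, had -0.16 in replicate 1 and -0.10 in replicate 2, with 5 of its 12 features called below. In TA23 the row medians moved from -0.07 and -0.19 in row E to 0.54 and 0.75 in row F and 0.69 and 0.81 in row G (replicates 1 and 2). The step between these neighbouring rows, E and F, was 0.60 and 0.94 units, while the highest and lowest plate medians of the run were 0.29 and 0.50 units apart in replicates 1 and 2. TA27 and TA28 held no row with a median of at least 0.5 in both replicates.

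**Figure D4:**
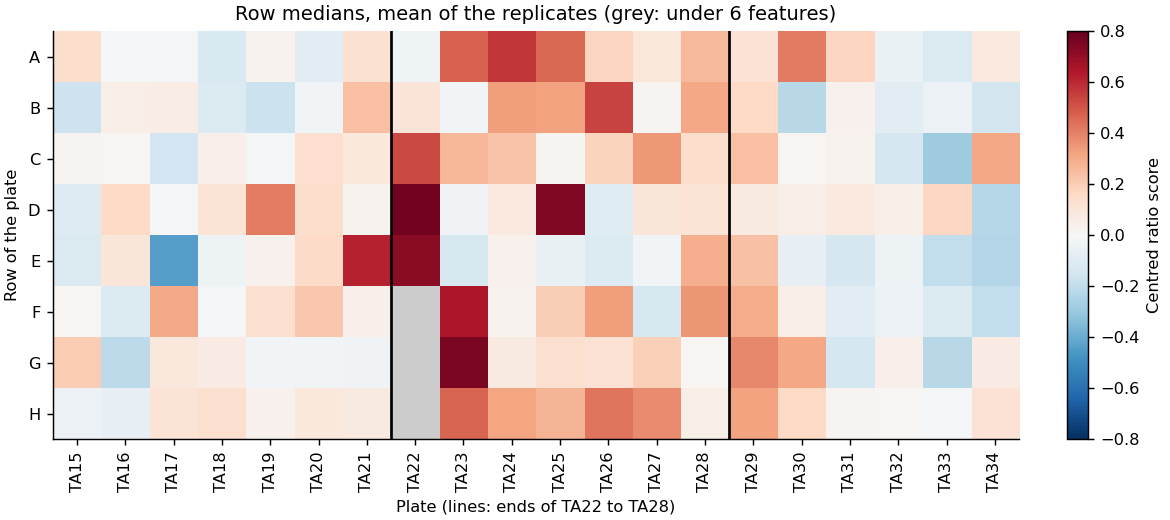
Row medians of the centred ratio score (colour, score units, mean of the replicates) for rows A to H (y axis) of plates TA15 to TA34 (x axis). Grey cells have under 6 features and the black lines are the ends of TA22 to TA28. The darkest red rows lie in TA22, TA23 and TA25, with pale rows between them.

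The same pattern appeared in how the variance was divided. Of the run's variance in the mean score, 7.30% lay between plates, 41.0% between rows of a plate and 51.7% within rows. In the flanks the shares were 7.89%, 25.3% and 66.8%. Differences between the run's own plates were thus a small part of its spread, and differences between rows were a larger part than in the flanks. The share between rows was highest in TA23 (63.9%), TA22 (60.2%) and TA26 (56.4%) and lowest in TA25 (22.1%) and TA28 (22.1%). In TA25 the features called above from TA25D06 to TA25E04 ran over a row end, and high blocks of TA22 and TA23 crossed row ends too. The part of row ends in these shares was not tested.

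Stretches of successive measured features above the array median in both replicates showed the blocks without reference to rows. The run held 68 such stretches, 26 of them single features, with a median length of 3. There were 18 stretches of 8 or more features, which together took 304 of the 424 features above in both replicates (71.7%). The flanks, with 1212 features in all, held 10 stretches of that length, which took 104 of 520 such features (20.0%). Over the whole array 13.1% of all features lay in stretches of that length, against 48.8% of the features of the run. The stretches rest on the scores that picked the run, so these counts are a description only. A larger share of features above in both replicates, 68.1% in the run against 42.9% in the flanks, leaves room for longer stretches. Its part in their length was not tested.

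The longest stretch ran from TA22B08 to TA23B03 and held 59 features, of which 56 were called above. In the whole run 45.4% of features were called above, and 17.0% on the array. A stretch holds only features on the same side in both replicates. This favours calls on that side, so counts of calls in stretches are a description. TA22B08, its first well, had 0.28 and 0.68 in replicates 1 and 2, and TA23B03, its last, had 0.34 and 0.38. The stretch contains a block of 32 codes, TA22F02 to TA22H09, for which no value was analysed here. On either side of that block it held 41 features with medians of 0.55 and 0.73 and 18 features with medians of 0.33 and 0.62 in replicates 1 and 2. The next longest held 34 features from TA24G07 to TA25B04, with medians of 0.24 and 0.46. A stretch of 28 features from TA23E12 to TA23H03 was higher, with medians of 0.64 and 0.79.

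The long stretches of TA28 were lower in replicate 1 than in replicate 2. Others of the run were so too, such as TA27D06 to TA27E02 with medians of 0.10 and 0.34. A stretch of 20 features from TA28D09 to TA28F04 had medians of 0.14 and 0.46 in replicates 1 and 2, and 19 features from TA28A03 to TA28B09 had 0.21 and 0.48. Long stretches crossed 3 of the 6 plate ends inside the run, those between TA22 and TA23, TA24 and TA25, and TA26 and TA27.

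Stretches below the array median in both replicates were mostly short in the run and in the flanks, with median lengths of 1 and 2 features. The run held 55, of which 29 were single features, and 2 reached 8 features. The longest held 10 features from TA26D09 to TA26E08, with medians of -0.13 and -0.26 in replicates 1 and 2 and 3 features called below. TA26D09, its first well, had -0.06 and -0.15 in replicates 1 and 2, and TA26E08, its last, had -0.03 and -0.06. The flanks had 8 low stretches of 8 or more features, the longest of 16. Low stretches of that length took 19 of 116 features below in both replicates in the run (16.4%) and 88 of 428 in the flanks (20.6%).

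Neighbouring wells were more alike in the run than in the flanks, as a description. With plate medians removed, wells next to each other correlated with Pearson's r = 0.76 over 599 pairs in the run, 0.56 over 1166 pairs in the flanks and 0.57 over 20798 pairs in all features outside the run. At 4 wells apart r was 0.36 in the run and 0.16 in the flanks, and at 8 wells apart 0.15 in the run and -0.03 in the flanks. The coefficient of the run was near zero from 10 wells onward. Between replicate 1 of a well and replicate 2 of the next measured well of the run, r was 0.64 over 616 pairs. The pairs share arrays and plates. The SD over features was 0.27 in the run and 0.19 in the flanks in replicate 1, and 0.38 in the run and 0.35 in the flanks in replicate 2, and the part of this spread in the coefficients was not tested.

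**Figure D5:**
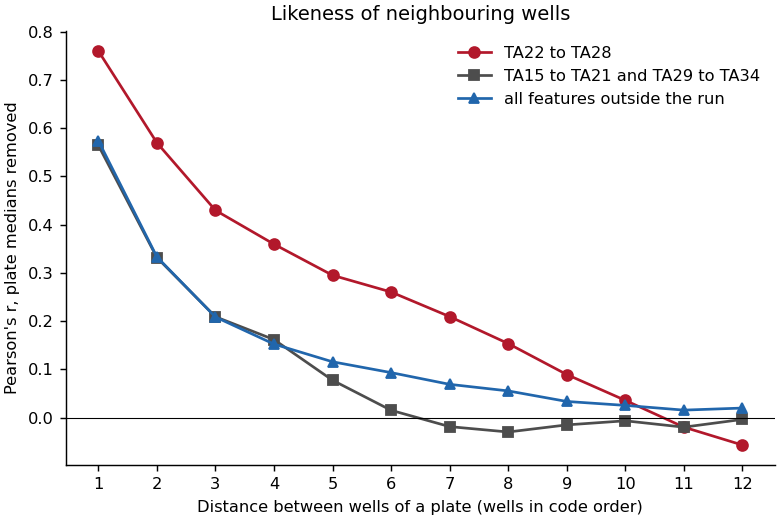
Pearson's r between wells of a plate, with plate medians removed and the replicates averaged (y axis), against their distance in code order (x axis, wells), for TA22 to TA28, the 13 flanking plates and all features outside the run. The curve of the run starts at 0.76 and stays above that of the flanks through 10 wells.

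The replicates ranked the members alike. Pearson's r between them was 0.85 and Spearman's rho 0.86 over the 623 features of the run, and r was 0.76 and rho 0.75 over the flanks. Over all features outside the run r was 0.84, close to that of the run. Features are not replicates, and these coefficients describe the arrays. Within plates of the run r ranged from 0.77 in TA28 to 0.93 in TA23. The replicates were over 0.5 units apart at 10 features of the run (1.61%) and at 49 of the flanks (4.04%). The score was higher in replicate 2 at 439 members (70.5%), while in the flanks it was so at 49.0% of features, and the median difference, replicate 2 minus replicate 1, was 0.12 in the run and -0.004 in the flanks. The other runs of high plates shared this, with replicate 2 higher at 72.0% of the features of TA35 to TA51 and at 75.7% of those of TC17 to TC30, and median differences of 0.11 in each. Replicate 2 had the wider spread over the array, and the part of this spread in these differences was not tested. At the same median absolute deviation the run medians were 0.21 in replicate 1 and 0.23 in replicate 2.

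The 12 features on either side of each end of the run had medians between -0.11 and 0.21. The first 12 features, TA22A02 to TA22B02, had medians of -0.03 and -0.11 in replicates 1 and 2, and the last 12 of TA21 had -0.03 and 0.09. The first member, TA22A02, had -0.07 and -0.33, a mean of -0.20 ± 0.18 (SD, n = 2), and was not called. The first long stretch above the array median began at TA22B08, and 1 feature of TA22 row A, TA22A06, was called above before it, with 0.18 and 0.51 in replicates 1 and 2. At the other end the last 12 features, TA28H01 to TA28H12, had medians of -0.04 and 0.14, and the first 12 of TA29 had 0.03 and 0.21. The last member, TA28H12, had 0.19 and 0.39, a mean of 0.29 ± 0.15 (SD, n = 2), and was called above. TA29A01, the next feature and the first outside, had -0.30 and -0.08, a mean of -0.19 ± 0.16 (SD, n = 2), and was not called, so these single neighbours differed in the same direction in both replicates.

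A larger share of codes had no value in the run than in its flanks. Of 672 possible codes on the 7 plates, 49 (7.29%) had no value here, against 36 of 1248 (2.88%) on the flanking plates and 2.00% on all 231 plates. The block of 32 codes in TA22 made up most of them, and the other 17 were single wells. All 96 wells had a value on 1 of the 7 plates (TA28), on 7 of the 13 flanking plates and on 200 of 231 plates. TA22, the plate with the highest median, had 36 codes without a value, and TA29, just outside the run, had 19. The part of missing wells in the height of these plates was not tested. Without TA22 the run median was 0.21 ± 0.11 (SD, n = 2).

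Beside the other 2 runs of high plates on the array, TA22 to TA28 had the smallest share of features called above and the largest share left uncalled. Features called above made up 45.4% of TA22 to TA28, 56.5% of TA35 to TA51 and 74.7% of TC17 to TC30. Scores of at least 0.5 in both replicates occurred at 12.2%, 24.2% and 41.4% of their features in that order. Uncalled features made up 47.0%, 37.0% and 22.3%. The share of variance between rows of a plate was 41.0% in TA22 to TA28, 32.7% in TA35 to TA51 and 27.5% in TC17 to TC30. In that order the share between plates was 7.30%, 17.3% and 22.8%. The share within rows was much alike, at 51.7%, 50.1% and 49.6%. All 3 runs were picked on the scores, and no difference between them was tested.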

How the data were processed

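The authors' deposited table holds 1 ratio score per feature and array, from 2-colour arrays of H3 precipitate and input, per the labels. No label or header states the normalization, base, numerator or array design, and scanner intensities were not used. Columns were not centred (medians 0.23 and 0.13 in replicates 1 and 2). Each dye-swap pair was averaged, without effect on any value, and each replicate was centred on its median. The test of features was limma 3.58.1 (lmFit and eBayes in R 4.3.3) on the mean against zero over all 21732 features, with Benjamini-Hochberg adjustment at 5%. The fit was also run on simulated scores with normal noise of a spread shared by all features. Such scores follow the fitted model, so the simulation cannot check the variance model on the real scores. Summaries used Python 3.11.15, numpy 2.4.6, pandas 2.3.3 and matplotlib 3.10.9. The number of arrays limits the precision, and calls rest on replicate spread that may be technical.

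The members, plates and lists were chosen with earlier results of these data known. Named are the plates, the 2 highest and 2 lowest members, the first and last member, and the ends of the longest stretches. Rows, other stretches and the other runs were chosen after their values were seen. No paired comparison applies to 1 group. Alternatives covered centring, scale, variance model, threshold, extent of the run and each replicate left out.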

Additional observations from a re-analysis of the deposited data

How the results depend on the processing

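The run median and its excess over the flanks stayed positive under all alternatives run. The plates were picked for high medians in each replicate, so this sign was favoured beforehand. Centring shifts the run and the flanks alike and cannot change the excess. Without centring the run median was 0.41, since both deposited columns have medians over zero. With 1 replicate left out it was 0.14 to 0.31, and the excess over the flanks 0.12 to 0.29. The 283 features called above became 184 with trend and robust variance, where 9.95% of the whole array was called above. They were 211 to 397 under the other alternatives. For these the shares over all features are not given here, so the counts do not set the run apart from the array. The 47 called below became 3 without centring, where every score is higher by the median of its column, 0.23 or 0.13. They became 27 at a 1% threshold, which can only remove calls. With trend and robust variance they became 0, against 0.175% of the whole array, and why the variance model changed the count was not tested. Features above in both replicates were 82.8% without centring and 61.5% with centring on the mode. With 1 replicate left out, 74.0% to 75.4% were above in the replicate kept, which is a looser measure. The shares over all features under these settings are not given here. Plates at least 0.1 above numbered 6 or 7 with 1 replicate left out, 4 with centring on the mode, 3 at a threshold of 0.15 and 2 at 0.2. The correlation of successive measured wells was 0.75 over 616 pairs, 0.74 with either replicate left out (0.738 to 0.743), 0.76 with no missing code between the wells, 0.77 as Spearman's rho and 0.64 between replicates. With 1 replicate there is no test, so the called counts have no such value. Thresholds of 0.05, 0.15 and 0.2, TA29 counted in the run and the flanks without TA20, TA21, TA29 and TA30 were chosen after seeing the data. No paired analysis was possible because there is 1 group. The smallest distance from the array median that was called was 0.26 units.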
